A study of Mus musculus with 4 samples.

Results

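Glycogen synthesis and breakdown genes were examined in mouse hearts that lacked both miR-1 genes. They were the 9 genes Gys1, Gbe1, Ugp2, Pygm, Pygb, Pygl, Phka1, Phkg1 and Gaa, taken by name from tables of 22552 gene rows, and each had 1 row at both stages. Poly-A RNA of whole hearts was sequenced in 4 libraries, 1 for each stage and genotype. The genotypes were dKO, with miR-1-1 and miR-1-2 both knocked out, and dHET, the control, named a littermate control in the series text for P2.5; all are of the strain labelled Sv129. The stages were postnatal day 2.5 (P2.5, single reads of 100 bases) and embryonic day 15.5 (E15.5, paired reads of 100 bases). In the deposited tables the P2.5 control is headed hetero, but WT heads the control values at E15.5 although that sample is labelled dHET. The labels do not say how many hearts went into a library. With 1 library per group no value has a replicate error, and within a stage each difference is between 2 libraries, with no test. Across both stages, the within-stage differences can be taken as 2 pairs, a fit given further on.

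Glycogen is the branched glucose store of muscle and heart. UDP-glucose made by Ugp2 is added to the chain by glycogen synthase, Gys1 is its muscle form, and the branching enzyme Gbe1 moves chain ends to make branch points. Glycogen phosphorylase removes glucose units from the chain ends and exists as muscle (Pygm), brain (Pygb) and liver (Pygl) forms, each from its own gene. Phosphorylase kinase switches it on, with Phka1 as a regulatory and Phkg1 as a catalytic subunit of the muscle enzyme. Acid alpha-glucosidase, encoded by Gaa, degrades glycogen inside lysosomes. Inherited loss of the human forms of several of these enzymes causes glycogen storage diseases, among them Pompe disease (GAA) and McArdle disease (PYGM), and the fetal heart is known for its large glycogen content.

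The microRNA miR-1 lowers messenger RNAs that pair with its seed, so its seed words were searched in the members' transcripts. The first word was ACATTCC. The second word was CATTCCA. The joined form is ACATTCCA, which contains both, and all were searched on the transcript strand of GENCODE M1 transcripts (build NCBIM37, the assembly of mm9). In the 3' UTR of the transcript with the longest coding sequence, 0 of 9 members held a word, beside 13.7% of 19525 genes with such a 3' UTR. In the longest annotated 3' UTR of each gene, Gbe1 and Gaa held words, 2 of 9 members beside 15.6% of 19948 genes, and in both this 3' UTR belongs to another isoform than the one with the longest coding sequence. The longest 3' UTR of Gbe1 (2442 bases) runs over bases that are coding in the main isoform, and there Gbe1 held CATTCCA in exon 5 (chr16:70434765-70434771, plus strand) and ACATTCCA in exon 16 (chr16:70569238-70569245, plus strand) of 16 exons. Coding sequence of Pygb (exon 8, chr2:150640851-150640857, plus strand) and Pygl (exon 9, chr12:71302304-71302310, and exon 17, chr12:71296691-71296697, minus strand) also held words, as did 15.9% of 22737 coding sequences. The Gaa word lies in a 3' UTR of 433 bases of another isoform (chr11:119134403-119134431 with its flanks, plus strand). The sites are shown because Gbe1, with the joined word, and Gaa were the members with the highest dKO-over-dHET values at both stages; capitals mark the seed word and lower case its flanks. A match is a description of the letters and not of a working site.
Gbe1 exon 5, coding: ataaattcaagCATTCCAgacctaagaaa
Gbe1 exon 16, coding: tcttctggtgtACATTCCAagccgagtggc
Gaa, 3' UTR of another isoform: cctgtctacctCATTCCAaaccctgcctt
Pygb exon 8, coding: cctgtttcgagACATTCCcagacaaggta
Pygl exon 9, coding: cctgcactcgcCATTCCAgagctgatgag
Pygl exon 17, coding: gccgaaaaagtCATTCCAgccacagacct

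The deposited values are FPKM, a read density per transcript length and library size, so levels of different genes can be set side by side within a library. The glycogen genes spanned from under 2 FPKM to over 100 FPKM at P2.5. Pygm and Pygb stood highest in all 4 libraries and Phka1 and Phkg1 lowest. Pygm was first at P2.5 and Pygb first at E15.5 in both genotypes. The plot of levels by library shows this order. The E15.5 and P2.5 tables were normalised separately, so levels of the stages are given side by side without a fold between them.

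**Figure D1:**
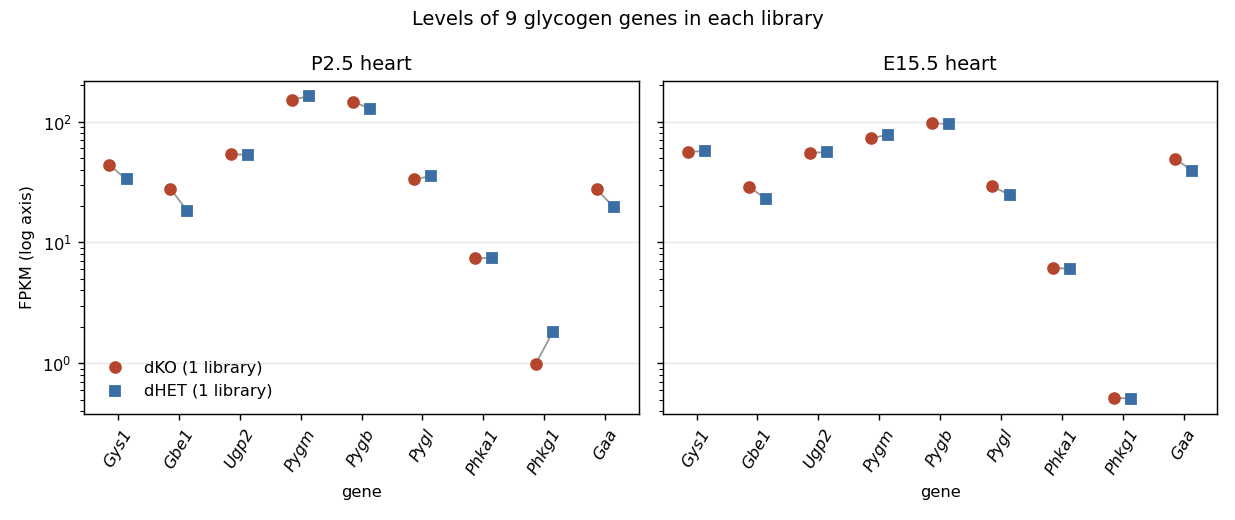
FPKM (log axis) of the 9 glycogen genes in the dKO library (circles) and the dHET library (squares) at P2.5 and at E15.5, 1 library per point, with a line joining the pair. Gbe1 and Gaa lie higher in the dKO library at both stages, while Ugp2 and Phka1 have nearly the same value in both libraries of a stage.

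Differences are log2 ratios of dKO to dHET with 1 FPKM added to both, a scale that understates differences of low genes. A gene was counted at a stage if 1 or both of its libraries reached 5 FPKM, which 8 of the 9 members did at each stage, all but Phkg1. At P2.5, 0 of these 8 were at least 1.5-fold higher in the dKO library, beside 3.59% of all 8197 counted genes, and 0 were at least 1.5-fold lower, beside 1.15%. At E15.5, 0 of 8 were at least 1.5-fold higher, beside 0.494% of 8308 genes, and 0 were lower, beside 0.566%. With the smaller fold of 1.2, the dKO library was higher for 3 of 8 members at P2.5 (Gys1, Gbe1 and Gaa), beside 24.1% of counted genes, and for 2 of 8 at E15.5 (Gbe1 and Gaa), beside 4.75%. As deposited, 0 of the 8 were at least 1.2-fold lower at P2.5 and 0 at E15.5, beside 9.22% and 3.82% of genes. With libraries rescaled to a common sum, 2 members were higher at P2.5 by that fold (Gbe1 and Gaa) and 1 was lower (Pygm). On that scale all counted genes had a median of -0.082 and 37.7% lay above 0. Their share past 1.2-fold was not computed there. At P2.5 the 8 counted members had a median difference of 0.10, beside 0.083 over all counted genes. For E15.5 the medians were 0.024 for the members and -0.012 for all counted genes. Rescaling each library to the same sum moved the median of all counted genes at P2.5 by -0.16, so P2.5 differences are also given relative to the median gene or after that rescaling.

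**Figure D2:**
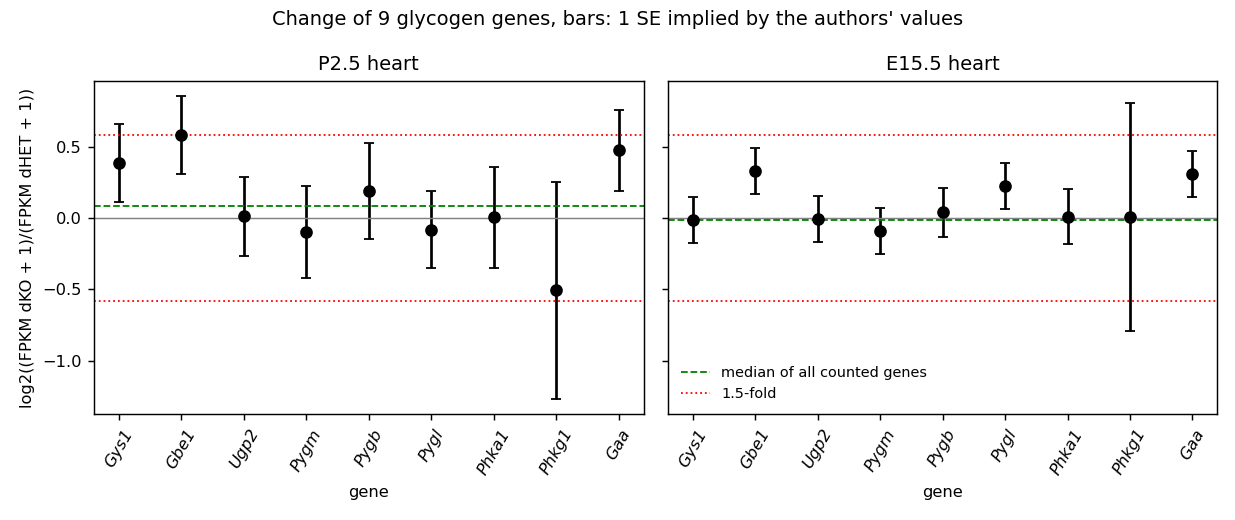
Difference of the 9 glycogen genes between dKO and dHET libraries, as log2((FPKM dKO + 1)/(FPKM dHET + 1)), at P2.5 and at E15.5. Bars are 1 standard error that the authors' deposited fold change and test statistic imply for the ratio without the added 1, the dashed line is the median of all counted genes and dotted lines mark 1.5-fold; Gbe1 at 0.58 at P2.5 touches the line, and the bars of Phkg1 are the widest.

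Among the synthesis genes, Gbe1 was higher in the dKO library at both stages, Gys1 at P2.5 and Ugp2 at neither. Gbe1 (chromosome 16, 70314332 to 70569961, mm9), the branching enzyme, had 27.7 FPKM in dKO and 18.2 FPKM in dHET at P2.5, and 28.9 FPKM in dKO and 22.9 FPKM in dHET at E15.5. Its log2 difference was 0.58 at P2.5, at a fold of 1.496 just short of 1.5-fold, and 0.33 at E15.5. These values lay above those of 96.3% of counted genes at P2.5 and 97.1% at E15.5, and stood 0.50 and 0.34 above the median gene. Under the alternatives tried the P2.5 value of Gbe1 ran between 0.43 and 0.61 and the E15.5 value between 0.29 and 0.34. In the authors' deposited table Gbe1 had an unadjusted p of 0.0264 and a q of 0.847 at P2.5, and a p of 0.0340 and a q of 0.963 at E15.5. That test compares 2 libraries and not genotypes.

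Gys1 (chromosome 7, 52690209 to 52711987), muscle glycogen synthase, had 43.7 FPKM in dKO and 33.2 FPKM in dHET at P2.5, and 56.4 FPKM in dKO and 56.9 FPKM in dHET at E15.5. The log2 difference was 0.39 at P2.5, 0.31 above the median gene and 0.22 after rescaling, and -0.013 at E15.5. The standard errors implied by the authors' values were 0.27 at P2.5, larger than the rescaled difference, and 0.16 at E15.5. A higher dKO level was thus seen at P2.5 alone, and whether the stages differ was not tested. The liver synthase Gys2 had a value above 0 only in the E15.5 dKO library, 0.00362 FPKM, and is listed at 0 in the other 3. In GENCODE M1, exons of Gys1 share 310 bases with exons of Ruvbl2 on the other strand. The deposited intervals do not overlap, since Ruvbl2 is listed at 52677268 to 52689834, before the start of Gys1. Ruvbl2 had 21.0 FPKM in dKO and 15.2 FPKM in dHET at P2.5, a log2 difference of 0.44, and -0.042 at E15.5. Strand use in the libraries is not given in the sources used here, and the part of the shared bases in the Gys1 value was not tested.

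Ugp2 (chromosome 11, 21221145 to 21270882), which makes the UDP-glucose, had 53.6 FPKM in dKO and 53.1 FPKM in dHET at P2.5, and 55.4 FPKM in dKO and 55.6 FPKM in dHET at E15.5. Its log2 differences were 0.013 and -0.0057, and the sign turned with centring on the median gene at both stages (-0.070 at P2.5, 0.0064 at E15.5) and with rescaling to a common sum at P2.5 (-0.16). The standard errors implied by the authors' values were 0.28 at P2.5 and 0.16 at E15.5, larger than any of these.

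On the deposited scale the phosphorylase genes together had nearly the same level in both genotypes. The summed FPKM of Pygm, Pygb and Pygl was 331 in dKO and 326 in dHET at P2.5, and 199.8 in dKO and 198 in dHET at E15.5. With libraries rescaled to a common sum, these sums had a log2 ratio of -0.15 at P2.5, against 0.0100 at E15.5. Within the sum the muscle form had a lower share in the dKO library at both stages. Pygm made up 45.8% in dKO and 49.8% in dHET at P2.5, and 36.5% in dKO and 39.3% in dHET at E15.5. Pygb made up 44.1% in dKO and 39.3% in dHET at P2.5, and 49.0% in dKO and 48.2% in dHET at E15.5. Pygl made up 10.1% in dKO and 10.8% in dHET at P2.5, and 14.6% in dKO and 12.5% in dHET at E15.5. Shares within a library do not depend on its scaling, and with 1 library per group their spread between hearts is unknown. The share of Pygm was higher in both P2.5 libraries than in either E15.5 library.

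**Figure D3:**
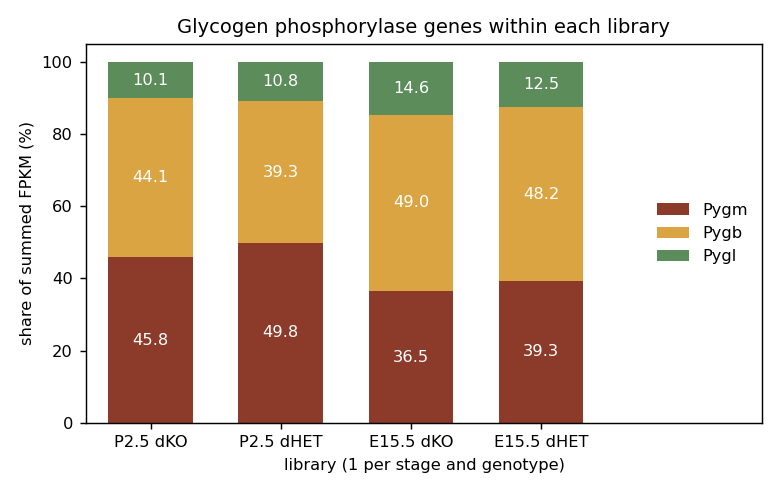
Share of Pygm (bottom), Pygb (middle) and Pygl (top) in the summed FPKM of the glycogen phosphorylase genes, in percent, in each of the 4 libraries. At P2.5 Pygm holds 45.8% in dKO and 49.8% in dHET, and at E15.5 it holds 36.5% in dKO and 39.3% in dHET.

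Pygm (chromosome 19, 6384429 to 6398459), the muscle phosphorylase, had 152 FPKM in dKO and 162 FPKM in dHET at P2.5, and 72.9 FPKM in dKO and 77.6 FPKM in dHET at E15.5. The log2 differences were -0.096 and -0.090, of the same sign at both stages and smaller than the standard errors of 0.32 and 0.16 implied by the authors' values. At P2.5 Pygm stood at -0.18 against the median gene and at -0.27 after rescaling. Pygb (chromosome 2, 150612532 to 150657484), the brain form, had 146 FPKM in dKO and 128 FPKM in dHET at P2.5, and 97.9 FPKM in dKO and 95.3 FPKM in dHET at E15.5. Its log2 differences of 0.19 and 0.039 were also within their standard errors of 0.34 and 0.17, and the P2.5 value was 0.11 against the median gene and 0.017 after rescaling. Pygl (chromosome 12, 71291802 to 71328670), the liver form, had 33.3 FPKM in dKO and 35.3 FPKM in dHET at P2.5, and 29.1 FPKM in dKO and 24.7 FPKM in dHET at E15.5. Pygl differed by -0.082 at P2.5 (-0.16 against the median gene, -0.26 after rescaling), and by 0.23 at E15.5, a value above 93.2% of counted genes of that stage. In the authors' deposited table Pygl had a p of 0.754 at P2.5 and a p of 0.144 at E15.5.

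Whether reads of the phosphorylase genes were mixed up with each other or with copies was not tested. The coding sequences of Pygm and Pygb were identical at 77.3% of aligned bases with a longest identical run of 62 bases, shorter than a read of 100 bases. For Pygm and Pygl the identity was 75.3% and for Pygb and Pygl 75.1%, each with a longest run of 29 bases. A copy on chromosome 19, outside Pygm, matched the Pygb transcript at 92.3% identity over an alignment of 1752 positions, gaps included. Copies elsewhere covered 46.5% of Pygb, 23.3% of Pygl and 6.75% of Pygm in all. The longest copy of Pygm, 114 bases at 90.4% identity, lay within Pygb. Gys1, Gbe1, Ugp2, Phka1 and Gaa had 0 copies of at least 60 bases at 90% identity outside their own locus. How the authors placed reads with several matches is not given in the sources used here, so Pygb and Pygl values are less certain than those of the single-copy members.

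The phosphorylase kinase genes were the lowest members. Phka1 (X chromosome, 99709314 to 99839585), the muscle regulatory subunit, had 7.43 FPKM in dKO and 7.40 FPKM in dHET at P2.5, and 6.11 FPKM in dKO and 6.07 FPKM in dHET at E15.5. The log2 differences were 0.0041 and 0.0093, and that at P2.5 turned to -0.078 with centring and -0.16 with rescaling to a common sum. Of the summed Phka1 and Phka2 level, Phka1 made up 43.7% in dKO and 38.9% in dHET at P2.5, and 45.2% in dKO and 43.0% in dHET at E15.5. The P2.5 pair also differed in sex-linked transcripts: Xist, which marks the inactive X chromosome, had 50.7 FPKM in dKO and 0.101 FPKM in dHET, and the Y-linked Ddx3y was listed at 0 in dKO and had 11.7 FPKM in dHET. At E15.5 Ddx3y had 14.8 FPKM in dKO and 15.3 FPKM in dHET. The X-linked Phka1 showed nearly equal levels across the P2.5 pair. Other X-linked genes named here, Phka2, Lamp2 and Alas2, had P2.5 log2 differences of -0.26, -0.48 and 0.54. For every P2.5 value, genotype and the sex-linked differences of the pair cannot be told apart. Phkg1, the muscle catalytic subunit, is listed on chromosome 5, 130322866 to 130354954, the same interval that the tables give for its neighbour Sumf2. It had 0.984 FPKM in dKO and 1.82 FPKM in dHET at P2.5, and 0.518 FPKM in dKO and 0.507 FPKM in dHET at E15.5. The log2 difference was -0.51 at P2.5 (-0.59 against the median gene), with about 117 fragments in dKO and 193 in dHET behind it, and 0.010 at E15.5.

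Phkg1 is the least certain member. Without the added 1, the authors' deposited log2 fold change at P2.5 was -0.89 with an implied standard error of 0.76. Of the 2374 bases of its transcript, 632 overlapped exons of Sumf2 on the other strand. The last 214 were covered, in whole or in part, by 19246 matches elsewhere in the genome. Each match had at least 60 bases at 90% identity or more. Sumf2 had 5.02 FPKM in dKO and 4.34 FPKM in dHET at P2.5, and 7.10 FPKM in dKO and 5.61 FPKM in dHET at E15.5, higher than Phkg1 in all 4 libraries. The catalytic subunit of the other isoform, Phkg2, had 12.0 FPKM in dKO and 8.36 FPKM in dHET at P2.5, so Phkg1 made up 7.56% of the summed Phkg1 and Phkg2 level in dKO and 17.9% in dHET. At E15.5 its share was 4.96% in both libraries.

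Gaa (chromosome 11, 119129281 to 119147012), the lysosomal enzyme, was higher in the dKO library at both stages. It had 27.5 FPKM in dKO and 19.5 FPKM in dHET at P2.5, and 49.0 FPKM in dKO and 39.3 FPKM in dHET at E15.5. The log2 differences of 0.48 and 0.31 lay above 92.9% and 96.8% of counted genes, and stood 0.39 and 0.32 above the median gene. In the authors' deposited table Gaa had a p of 0.0824 at P2.5 and of 0.0483 at E15.5, with q values of 0.999987 and 0.999909. Across the 9 members that table called 0 significant at either stage, beside 0.406% of 13537 tested genes at P2.5 and 0.936% of 14417 at E15.5. An unadjusted p under 0.05 was listed for 1 of 9 members at P2.5 (Gbe1), beside 4.81% of tested genes, and for 2 of 9 at E15.5 (Gbe1 and Gaa), beside 4.36%.

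Taken as 2 pairs in a limma fit over 7650 genes counted at both stages, the differences gave 50 genes with a Benjamini-Hochberg adjusted p under 0.05, or 0.654%, and 0 of 8 members. The fit has 1 residual degree of freedom per gene, and its spread is that between the stages' differences and not between hearts. To this limma adds a variance shared over all fitted genes, with 9.74 prior degrees of freedom. The p-values and intervals below therefore rest mostly on the spread of other genes and not on a gene's own 2 pairs. An unadjusted p under 0.05 was found for 2 of 8 members, Gbe1 and Gaa, beside 13.8% of genes. Gbe1 had a mean log2 difference of 0.45 (95% confidence interval 0.20 to 0.71) with an adjusted p of 0.13 by limma, higher in dKO in 2 of 2 pairs. Gaa had a mean of 0.39 (0.15 to 0.64) with an adjusted p of 0.16 by limma, also higher in 2 of 2 pairs. These directions restate the within-stage differences given above. The share of all fitted genes higher in both pairs was not computed. The adjusted p of the other 6 members ran between 0.539 and 0.993 in limma.

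Promoters are printed for Gbe1 and Gaa, which were both higher in the dKO library at both stages, and for the muscle gene Pygm. Pygm was lower there by less than its implied standard errors. Each runs from 250 bases before to 50 bases after the start site in RefSeq (build GRCm38.p6, which differs from mm9). They are chr16:70313699-70313998 (plus strand) for Gbe1, chr11:119267713-119268012 (plus strand) for Gaa and chr19:6384158-6384457 (plus strand) for Pygm. Capitals mark matches, on either strand, to the E-box CACGTG, the E-box CAGCTG, the nuclear receptor word AAGGTCA and TATAAA; these motifs do not overlap. All 9 members matched the promoter table. CACGTG, a word bound by the lysosomal regulator TFEB among others, occurred in the Gaa promoter and in 7.15% of 32851 promoters. CAGCTG, a word bound by muscle helix-loop-helix factors, occurred 2 times in the Pygm promoter and in 16.3% of promoters. It occurred in 4 of 9 members, the others being Gys1, Ugp2 and Phka1. That count is of genes, whereas the 16.3% is of promoters. Ugp2 has 2 promoters, of which only promoter 2 held the word. The Gbe1 promoter held none of the 4 words, of which AAGGTCA occurred in 4.72% and TATAAA in 13.6% of promoters.
Gbe1: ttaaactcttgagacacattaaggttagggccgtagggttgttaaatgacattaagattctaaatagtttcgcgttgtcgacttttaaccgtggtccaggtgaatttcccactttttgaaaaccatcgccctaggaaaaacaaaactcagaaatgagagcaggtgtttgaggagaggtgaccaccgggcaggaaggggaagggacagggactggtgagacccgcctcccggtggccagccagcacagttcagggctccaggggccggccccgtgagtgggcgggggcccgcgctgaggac
Gaa: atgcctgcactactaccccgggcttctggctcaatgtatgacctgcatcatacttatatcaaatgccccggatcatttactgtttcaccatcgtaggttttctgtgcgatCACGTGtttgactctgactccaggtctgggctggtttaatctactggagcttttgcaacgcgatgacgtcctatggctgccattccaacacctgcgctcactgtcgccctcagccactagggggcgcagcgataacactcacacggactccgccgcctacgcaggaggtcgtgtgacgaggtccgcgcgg
Pygm: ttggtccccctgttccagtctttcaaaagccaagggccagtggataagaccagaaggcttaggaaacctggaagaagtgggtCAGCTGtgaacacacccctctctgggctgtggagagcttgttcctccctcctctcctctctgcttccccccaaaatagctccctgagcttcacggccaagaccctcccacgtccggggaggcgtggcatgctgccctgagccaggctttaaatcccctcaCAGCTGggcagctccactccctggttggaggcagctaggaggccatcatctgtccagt

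The wider pathway was read from 42 other genes grouped by role, all present in both tables. At P2.5 33 of them were counted, of which 0 were higher and 1 was lower in dKO by 1.5-fold or more, and at E15.5 32 were counted, of which 0 were higher and 0 lower; the shares over all genes are those given above. They had a median difference of 0.0040 at P2.5, below the median gene (0.083), and of 0.023 at E15.5, above it (-0.012). The lower gene was Ppp1r3a, which ties protein phosphatase 1 to glycogen in striated muscle, with 4.35 FPKM in dKO and 8.06 FPKM in dHET at P2.5, a log2 difference of -0.76. At E15.5 it was under the level filter, with 2.15 FPKM in dKO and 2.74 FPKM in dHET. In the authors' deposited table its P2.5 p was 0.00178 with a q of 0.190.

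**Figure D4:**
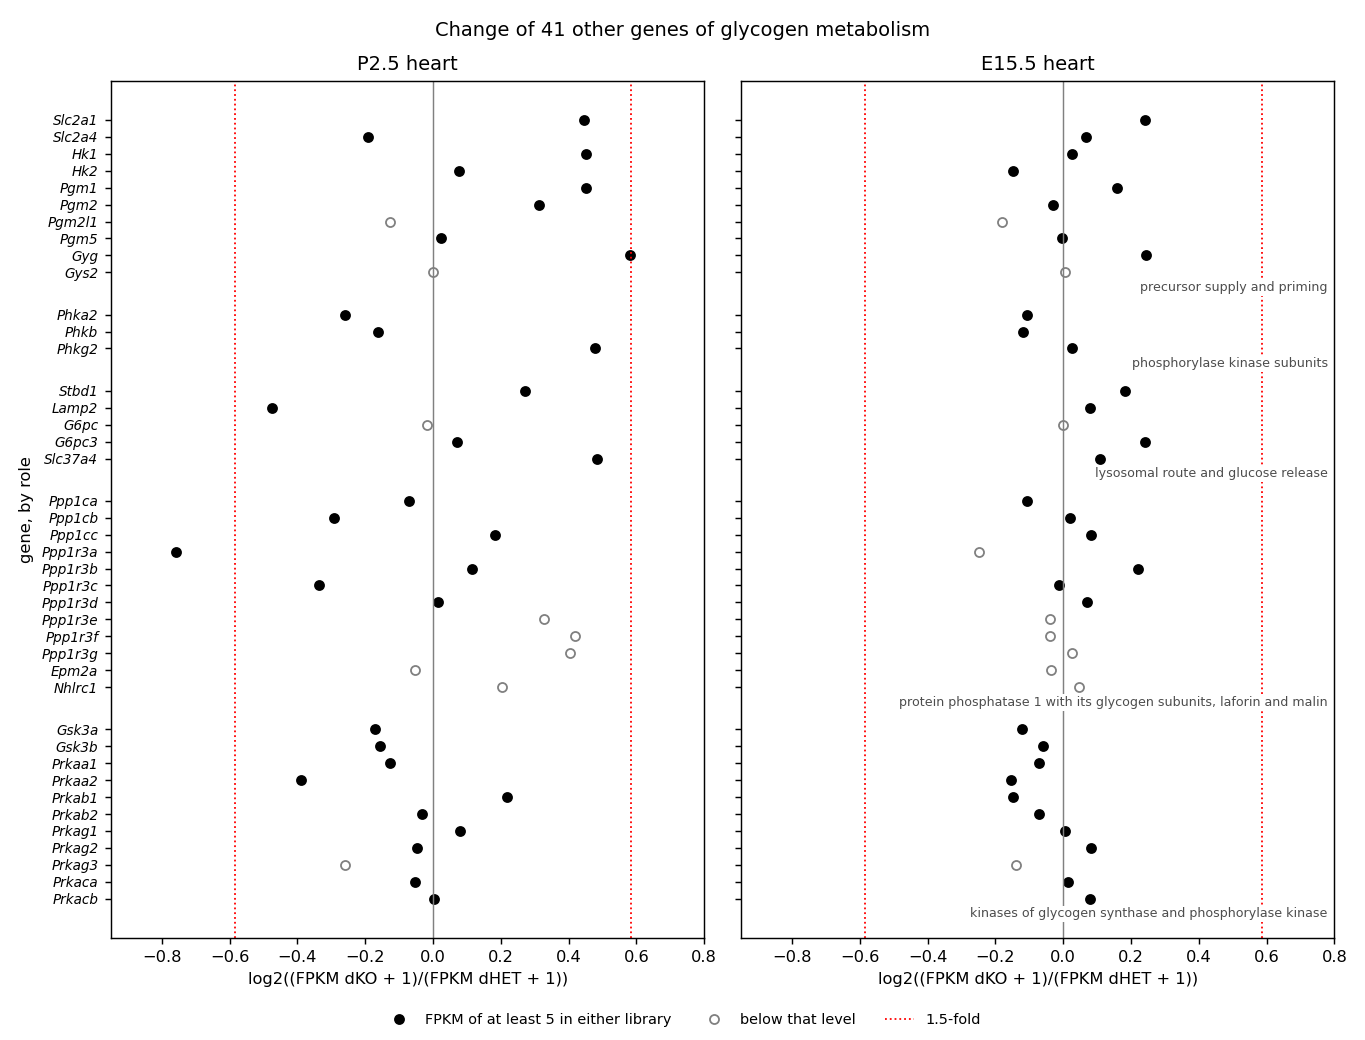
Difference of 41 of the 42 other genes of glycogen metabolism, as log2((FPKM dKO + 1)/(FPKM dHET + 1)), at P2.5 (left) and at E15.5 (right), with the name of each role under its genes in the right panel. Filled points reached 5 FPKM in 1 or both libraries, open points did not, and dotted lines mark 1.5-fold; Ppp1r3a at -0.76 is the point beyond the lines at P2.5.

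Of 8 counted genes of glucose uptake, phosphorylation and chain priming, 7 were above 0 at P2.5, beside 63.2% of all counted genes. Their median was 0.38, and 5 of the 8 were above the median gene. Gyg, which encodes glycogenin, the protein that starts the chain, had 189.8 FPKM in dKO and 127 FPKM in dHET at P2.5, and 363 FPKM in dKO and 307 FPKM in dHET at E15.5. Its log2 differences were 0.58 and 0.24. The phosphoglucomutase gene listed as Pgm1 (chromosome 5) had 8.15 FPKM in dKO and 5.69 FPKM in dHET at P2.5. The one listed as Pgm2 (chromosome 4) stood higher, with 85.8 FPKM in dKO and 68.9 FPKM in dHET. Its log2 differences were 0.31 at P2.5 and -0.031 at E15.5. At E15.5 the median of the 8 counted genes was 0.047, and the glucose transporter Slc2a1 had 68.1 FPKM in dKO and 57.5 FPKM in dHET.

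Phosphorylase kinase subunits outside the members went both ways at P2.5. Phkg2 was at 0.48, and the regulatory subunit Phka2 had 9.57 FPKM in dKO and 11.6 FPKM in dHET, a log2 difference of -0.26. At E15.5 Phka2 was at -0.11 and Phkb, the other regulatory subunit, at -0.12 (11.1 FPKM in dKO and 12.1 FPKM in dHET). Among genes of lysosomal handling and glucose release, the glucose-6-phosphate transporter Slc37a4 had 9.80 FPKM in dKO and 6.73 FPKM in dHET at P2.5, whereas the lysosomal membrane gene Lamp2 had 36.3 FPKM in dKO and 50.8 FPKM in dHET. At E15.5 the phosphatase G6pc3 was at 0.24 and the glycogen-binding gene Stbd1 at 0.18.

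Phosphatase and kinase genes set the state of the glycogen enzymes. For protein phosphatase 1, its glycogen subunits, laforin and malin, the median was -0.070 over 7 counted genes at P2.5 and 0.045 over 6 at E15.5. Against the median gene the P2.5 median was -0.15, and after rescaling -0.24. Ppp1r3c had 27.8 FPKM in dKO and 35.3 FPKM in dHET at P2.5. At E15.5 Ppp1r3b was at 0.22 and the catalytic subunit Ppp1ca at -0.11. Over 10 counted kinase genes the median was -0.050 at P2.5, where 1 of 10 lay above the median gene, and -0.066 at E15.5. The P2.5 median was -0.13 against the median gene and -0.22 after rescaling. Prkaa2, a catalytic subunit of AMP-activated kinase that phosphorylates glycogen synthase, had 22.9 FPKM in dKO and 30.3 FPKM in dHET at P2.5, and 34.6 FPKM in dKO and 38.6 FPKM in dHET at E15.5. Prkab1, whose protein carries a glycogen-binding domain, was at 0.22 at P2.5 and -0.15 at E15.5.

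Libraries were deep relative to the levels of the members other than Phkg1, and markers of skeletal muscle, liver, neurons and glia were low. Steps in the low FPKM values of 17 to 61 single-exon receptor genes per library were whole multiples of 1 fragment within 0.05 in all cases, which gave scaling totals of 49900000 (dKO) and 44600000 (dHET) at P2.5 and 104000000 (dKO) and 86500000 (dHET) at E15.5. All 8 cardiomyocyte markers were expressed, with a summed level of 25075 FPKM in dKO and 19781 FPKM in dHET at P2.5, and 10949 FPKM in dKO and 11656 FPKM in dHET at E15.5. Of the 8, 5 were above 0 at P2.5 (median difference 0.18) and 2 at E15.5 (median -0.12). Of all counted genes, 63.2% were above 0 at P2.5 (median 0.083) and 46.3% at E15.5 (median -0.012). The marker lists below stand beside the same shares and medians, and they include markers under the level filter. Of the 3 smooth muscle markers, Acta2, an actin that immature heart muscle also expresses, carried most of the summed level, with 1692 FPKM in dKO and 658 FPKM in dHET at P2.5, and 1215 FPKM in dKO and 692 FPKM in dHET at E15.5. Tagln was lower in dKO at both stages (log2 differences of -0.090 and -0.29), and Myh11 differed by 0.48 at P2.5 but by -2.05 at E15.5, so the list had no common direction. Of the 4 erythroid markers 3 were above 0 at each stage, led by Alas2 with 18.6 FPKM in dKO and 12.5 FPKM in dHET at P2.5, and 15.05 FPKM in dKO and 11.2 FPKM in dHET at E15.5. Of the 3 endothelial markers 3 were above 0 at P2.5 (median 0.13) and 2 at E15.5 (median 0.043). Of the 3 fibroblast markers 1 was above 0 at P2.5 (median -0.17) and 0 at E15.5 (median -0.11). Among the 4 brown fat markers Cidea alone passed 1 FPKM, with 19.1 FPKM in dKO and 14.5 FPKM in dHET at P2.5, and 2.29 FPKM in dKO and 2.04 FPKM in dHET at E15.5, and Ucp1 was at 0 in both P2.5 libraries. The neuron and glia markers summed to at most 2.82 FPKM in any library. The part of these markers in the Gbe1 and Gaa values was not tested, nor was that of the depth, which was greater in dKO at both stages. The part of cardiomyocyte content in the members' values was not tested, and in whole hearts fewer cells of a type and less RNA per cell cannot be told apart. The 7 skeletal muscle markers summed to 1.32 FPKM in dKO and 0.510 FPKM in dHET at P2.5, and 3.30 FPKM in dKO and 3.34 FPKM in dHET at E15.5, with Myf6 at 0 in all 4 libraries. The 6 liver markers summed to 1.27 FPKM in dKO and 1.82 FPKM in dHET at P2.5, and 1.65 FPKM in dKO and 1.62 FPKM in dHET at E15.5, with Alb and Serpina1a at 0 in all 4 libraries. Of the leukocyte markers 2 of 5 were above 0 at P2.5 (median -0.013), with S100a9 at 7.43 FPKM in dKO and 3.63 FPKM in dHET, and 0 of 6 at E15.5 (median -0.055).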

How the data were processed

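The authors deposited 1 table per stage with FPKM per gene and library, read through the column headings. The submitters' processing notes list TopHat, Bowtie, Cufflinks and mm9, with no version, role or setting. The deposited tables also hold the authors' log2 fold change, p-value and q-value, and a test statistic, used here as a score; the fold change divided by it gave the implied standard error. The E15.5 fold change runs control over dKO and was turned round. Of each stage's rows, 86 that were displaced by commas in joint gene names were realigned on their position. Rows with status OK or NOTEST were used, which left out 175 rows at P2.5 and 178 at E15.5.

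Differences were computed over whole tables with a pseudocount of 1 FPKM, within a stage, and a gene was counted where 1 or both libraries reached 5 FPKM. With 1 library per group there is no test within a stage; over both stages, the differences entered limma 3.58.1 in R 4.3.3 as 2 pairs, a fit chosen after seeing the data. Start positions in the tables count from 0 and are given counted from 1. Fragments of Phkg1 were estimated from FPKM, transcript length and the scaling total. Copies were searched with blastn 2.17.0+ and sites with GENCODE M1 transcripts; Python 3.11.15 and pandas 2.3.3 were used. The calculation was tested on simulated data. Protein sequences were not analysed here, and 1 of the 42 other genes enters the counts but is not reported here by itself. Named from the 42 other genes were those past 1.5-fold and, per role and stage, the 2 with the largest absolute difference among those counted. Gys2 and Pgm2 were named beside Gys1 and Pgm1. Genes in the other observations were chosen after their values were seen. Members and lists were chosen with earlier results of these data known.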

Additional observations from a re-analysis of the deposited data

Results flagged for a closer look

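Members whose dKO-minus-dHET difference had opposite signs at P2.5 and E15.5 were listed, with 1 pair of libraries per stage; these differences between stages were not tested. The P2.5 log2 difference minus the E15.5 log2 difference was 0.40 for Gys1 (0.39 and -0.013). For Pygl it was -0.31 (-0.082 and 0.23). For Phkg1 it was -0.52 (-0.51 and 0.010), at FPKM of at most 1.82. For Ugp2 it was 0.019 (0.013 and -0.0057), with a sign that turns under other scalings at each stage.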

How the results depend on the processing

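Medians were compared with the error implied by the authors' values, divided by the square root of the number of genes. Filters cannot alter a gene's own difference. Among the member differences, 5 changed sign, those of Ugp2 and Phka1 at P2.5 with centring and with rescaling, and of Ugp2 at E15.5 with centring. At P2.5 the members had a median of -0.071 after rescaling to a common sum (0.10 as reported), and that of the 42 other genes was -0.079 after centring and -0.17 after rescaling (0.0040 as reported). The count of members at least 1.5-fold higher at P2.5 was 1, in place of 0, with a pseudocount of 0.1 (Gbe1), and with a fold of 1.2 there were 3 at P2.5 and 2 at E15.5. Of the 42 other genes, 33 were counted at P2.5, and 8 of these were higher at a fold of 1.2, beside 24.1% of all counted genes. The count of lower ones, 1 as reported, was 0 with a pseudocount of 5, with a filter at FPKM 10 and at a fold of 2. After rescaling it was 2, on a scale where all counted genes had a median of -0.082. At a fold of 1.2 without rescaling it was 6, beside 9.22% of all counted genes. Weighted by transcript length, the share of Pygm was 39.6% in dKO and 43.7% in dHET at P2.5, and 31.1% in dKO and 33.5% in dHET at E15.5. Members with a seed word in the 3' UTR numbered 2 in the longest 3' UTR and 0 in that of the longest coding transcript, an alternative chosen after seeing the data. Within a stage no paired analysis was possible, with 1 library per genotype. With the stages as pairs, limma called 50 genes as deposited and 54 after centring, with 0 of 8 members in both. The spread between hearts is unknown for every value, and Phkg1 rests on 104 to 193 fragments per library.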

Other observations

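Ratios within a library, free of its scaling, were examined for pairs of genes chosen after their values were seen. The ratio of Gaa to the X-linked lysosomal membrane gene Lamp2 was 0.760 in dKO and 0.384 in dHET at P2.5. At E15.5 it was 0.790 in dKO and 0.670 in dHET. The ratio of Gys1 to the summed phosphorylases was 0.132 in dKO and 0.102 in dHET at P2.5, and 0.282 in dKO and 0.288 in dHET at E15.5. With 1 library per group none of these ratios has a replicate error.

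Glucose transporter genes differed in balance between the stages, each stage in its own table. Slc2a1, a basal glucose transporter, made up 27.8% in dKO and 19.3% in dHET of the summed Slc2a1 and Slc2a4 level at P2.5, and 78.9% in dKO and 76.8% in dHET at E15.5. Slc2a4, the insulin-responsive transporter, had 33.9 FPKM in dKO and 38.9 FPKM in dHET at P2.5, and 18.2 FPKM in dKO and 17.3 FPKM in dHET at E15.5. The hexokinase Hk1 made up 85.3% in dKO and 81.7% in dHET of the summed Hk1 and Hk2 level at P2.5, and 86.2% in dKO and 84.6% in dHET at E15.5.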
